A study of Mus musculus with 6 samples.

Results

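The potassium channel genes of the mouse aortic root were taken as all gene symbols that start with Kcn and held 30 or more read counts summed over 6 bulk RNA-seq libraries. Of 23420 symbols in the deposited count table, 95 start with Kcn, and 67 of these reached the minimum. The last members inside it were Kcnrg with 32 and Kcnf1 with 34 counts, and the first symbols outside it were Kcnu1 with 24 and Kcng1 with 22. The 28 symbols outside, among them Kcnk16 and Kcnk18 with 0 counts in every library, are not described further. The members were grouped by symbol into 29 pore or modifier subunits of voltage-gated (Kv) channels, 12 auxiliary subunits of Kv channels, 10 inward rectifiers (Kir), 6 channels with a pair of pore domains in each subunit (K2P) and 9 genes of the calcium-activated and Slo family. The remaining member, Kcnq1ot1, is a long non-coding RNA gene and encodes no channel.

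Each library was made from the aortic root of mice on a C57BL6/J background, with 3 libraries labelled Sost-/- and 3 labelled Sost+/+. Sost encodes sclerostin, a secreted Wnt antagonist. All mice were 12 months old and, from 4 months of age, had eaten a high-cholesterol diet for 8 months. The root holds the valve and lies against the ventricle, so a library mixes RNA of arterial smooth muscle, heart muscle, connective tissue, nerve and other cells. The labels do not name the animals or describe the allele, so the p-values cover only how these roots varied, which may in part be technical.

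Potassium channels let potassium ions leave the cell and thereby hold or restore a negative membrane potential. In arterial smooth muscle this lowers calcium entry and relaxes the vessel. In heart muscle Kv channels and inward rectifiers end the action potential, K2P channels carry leak current, and ATP-sensitive Kir channels couple current to metabolism. A pore is built from several subunits, and auxiliary subunits set its gating and its number at the membrane.

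Total counts ran from 38870673 to 41803775 in the libraries labelled Sost-/- and from 37023586 to 48172863 in those labelled Sost+/+. Sost itself held 2284, 1063 and 513 counts in the libraries labelled Sost-/-, against 354, 621 and 274 in those labelled Sost+/+. The targeted gene was therefore not lower in the libraries labelled Sost-/- (log2 fold change 1.56, SE 0.48, edgeR adjusted p = 0.124), and every direction given here is that of the labels. Replicate numbers follow the order of the samples and pair no libraries. Of 16 smooth muscle markers, 11 rose and 0 fell in edgeR, with a median log2 fold change of 1.28. Their summed level was 10759 to 12120 CPM (counts scaled to library size) in the libraries labelled Sost-/- and 8330 to 9538 CPM in those labelled Sost+/+. Much of that sum came from Des and Pln, abundant heart muscle genes as well, which had negative log2 fold changes of -0.34 and -0.23 and were not called. Without these 2, left out after their values were seen, the sum of the other 14 was 5029 to 7315 CPM in the libraries labelled Sost-/- and 1736 to 3349 CPM in those labelled Sost+/+, a 2.56-fold higher mean. Of 20 cardiomyocyte markers, 0 rose and 2 fell, with a median of -0.45. Their summed levels were 79399 to 95695 CPM in the libraries labelled Sost-/- and 114062 to 120812 CPM in those labelled Sost+/+. Of the 20, 2 had positive log2 fold changes, Myl4 (0.65, SE 0.54) and Myl7 (0.46, SE 0.54). Both varied widely between libraries, and so did Nppa. Myl4 had 632 to 1706 CPM in the libraries labelled Sost-/- and 213 to 1077 CPM in those labelled Sost+/+. Among 14 Schwann cell and nerve markers, 12 were tested and 0 were called, though all 12 had positive log2 fold changes (median 0.36). Their sums were 240 to 285 CPM in the libraries labelled Sost-/- and 218 to 242 CPM in those labelled Sost+/+. Medians were 0.27 over 10 fibroblast, 0.21 over 8 pericyte, 0.14 over 9 macrophage and -0.10 over 10 blood endothelial markers. In these 4 lists only the pericyte marker Cspg4 was called (log2 fold change 0.92, SE 0.17, edgeR adjusted p = 0.0279). All 8 adipocyte markers had positive log2 fold changes with a median of 1.38, 0 of them called, and their sums overlapped (577 to 1218 CPM in the libraries labelled Sost-/- and 462 to 825 CPM in those labelled Sost+/+). What part these markers have in the channel results could not be tested here. Fits with the smooth muscle or cardiomyocyte marker score as covariate are given below, where score and genotype label cannot be told apart. No listed marker of these cell types was at 0 in all libraries. In bulk RNA, fewer cells of a type and less RNA per cell cannot be told apart.

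In the libraries labelled Sost-/-, 7 potassium channel genes rose and 1 fell. The genes that rose were the BK channel pore Kcnma1 and its smooth muscle subunit Kcnmb1, the sodium-activated channel Kcnt1, the Kv subunits Kcnc4 and Kcns3, the Kv auxiliary subunit Kcnab1 and the inward rectifier Kcnj15. Their fold changes ran from 1.85 for Kcnj15 to 4.36 for Kcnc4. The gene that fell was Kcna5, the pore of the ultrarapid delayed rectifier of heart and artery, which was 1.66-fold lower in the libraries labelled Sost-/-. Genes counted as called had a Benjamini-Hochberg adjusted p under 0.05 in the quasi-likelihood test of edgeR, run on 15096 genes that included 62 of the 67 members. Of all tested genes 2.55% were called, 2.18% higher and 0.371% lower, against 12.9%, 11.3% and 1.61% of the tested members. The median log2 fold change was 0.27 over the 62 members and 0.0066 over all tested genes. Each of the 8 called members held at least 14 counts in every library, and none overlapped between the groups. The calls rest on these same values, so the lack of overlap is no separate support for them. Of all tested genes, 14.3% had all 3 libraries labelled Sost-/- above all 3 labelled Sost+/+, and 11.1% had them below.

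**Figure D1:**
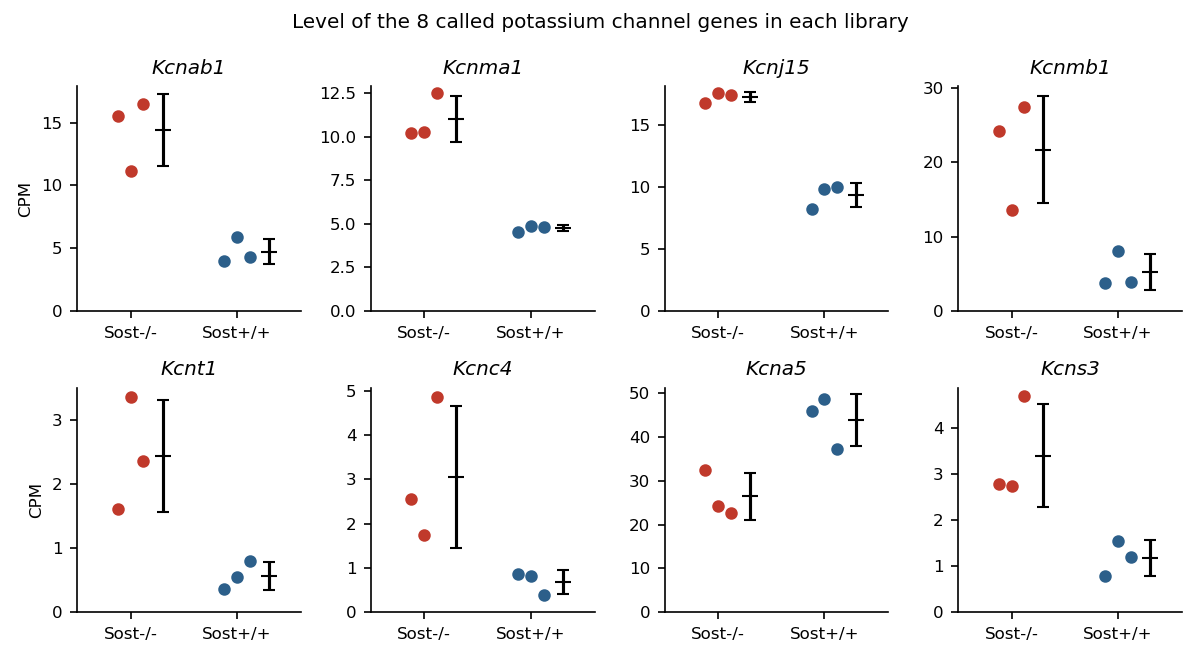
Levels in CPM (vertical axes, from 0) of the 8 called genes. Each dot is a library, and the bar beside each group gives the mean and SD of 3 libraries. In every panel the 3 libraries labelled Sost-/- lie above the 3 labelled Sost+/+, except for Kcna5, where they lie below.

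The calls depended on single libraries. Without replicate 1 of the Sost+/+ label or without replicate 3 of the Sost-/- label, 0 of the 8 members passed in edgeR. Their adjusted p then ran from 0.0727 to 0.165 and from 0.0512 to 0.196. Over all tested genes, 0 passed without the first of these libraries and 10 without the second. Without replicate 2 or 3 of the Sost+/+ label 4 of the 8 were called, without replicate 1 of the Sost-/- label 6, and without its replicate 2, 5. Kcnab1, Kcnj15 and Kcnma1 kept their calls in 4 of the 6 omissions, Kcnmb1 in 3, Kcnt1 in 2, and Kcna5 and Kcnc4 in 1, while Kcns3 kept it in 0. Directions of all 8 were the same in each omission.

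The calcium-activated and Slo family had the most calls for its size, 3 of 9 tested members higher and 0 lower, with a median log2 fold change of 0.31. Over all tested genes 2.18% were higher and 0.371% lower. This ranking rests on 3 genes, which all lost their calls without replicate 1 of the Sost+/+ label. BK channels, which open on calcium release below the membrane and oppose contraction, are built from the pore protein of Kcnma1, and in smooth muscle the beta subunit of Kcnmb1 raises their calcium sensitivity. Kcnma1 (ENSMUSG00000063142.15, mm10 chromosome 14, 23289431 to 24014491, minus strand) had 10.2, 10.3 and 12.5 CPM in the libraries labelled Sost-/-, against 4.55, 4.86 and 4.80 CPM in those labelled Sost+/+. The 3 values labelled Sost+/+ lay within 0.4 CPM of each other and all 3 labelled Sost-/- were more than double any of them. The log2 fold change was 1.21 (SE 0.14, edgeR adjusted p = 0.0119).

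Kcnmb1 (ENSMUSG00000020155.2, chromosome 11, 33963013 to 33973641, plus strand) had 24.2, 13.6 and 27.4 CPM in the libraries labelled Sost-/-, against 3.72, 8.01 and 3.87 CPM in those labelled Sost+/+. Replicate 2 was the lowest of its group under the Sost-/- label and replicate 2 the highest under the Sost+/+ label, and the groups did not overlap. The log2 fold change was 2.06 (SE 0.34, edgeR adjusted p = 0.0230), which was 0.0503 in the robust edgeR fit. Kcnmb1 lies within the span of Kcnip1 on the other strand, with which it shares no annotated exon base, and Kcnip1 was at 0.35 ± 0.091 CPM in the libraries labelled Sost-/- and 0.32 ± 0.10 CPM in those labelled Sost+/+ (SD, n = 3 each).

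Per kb of annotated exon, Kcnmb1 stood above Kcnma1 in each library. This order rests on merged exon lengths of 16976 bases for Kcnma1 and 4191 for Kcnmb1. In CPM, Kcnma1 was above Kcnmb1 in replicates 1 and 3 of the Sost+/+ label (4.55 against 3.72 and 4.80 against 3.87). It was below Kcnmb1 in the remaining libraries. The ratio of Kcnmb1 to Kcnma1 per kb was 9.61, 5.34 and 8.88 in the libraries labelled Sost-/-, against 3.31, 6.68 and 3.26 in those labelled Sost+/+. These ranges overlapped (two-sided exact permutation p = 0.2, and 0.3 adjusted over the 6 subunit ratios computed, where 0.1 is the smallest p that 3 against 3 libraries allow). The other BK beta subunit among the members, Kcnmb4, known mainly from brain, had a log2 fold change of -0.22 (SE 0.42). Of 4 genes of BK gamma subunits, 2 could be tested, and Lrrc52 and Lrrc55 were near or under 1 CPM in both groups (log2 fold changes -0.23 and -0.17).

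The 250 bases before the RefSeq transcription start of the BK pair are shown because both genes rose together. No motif searched was found in either window. The windows lie at chr14:24004206-24004455 (minus strand) and chr11:33962763-33963012 (plus strand), build GRCm38, and hold 79.2% and 50.8% G and C, where the median over 27025 genes was 52.4%.
Kcnma1: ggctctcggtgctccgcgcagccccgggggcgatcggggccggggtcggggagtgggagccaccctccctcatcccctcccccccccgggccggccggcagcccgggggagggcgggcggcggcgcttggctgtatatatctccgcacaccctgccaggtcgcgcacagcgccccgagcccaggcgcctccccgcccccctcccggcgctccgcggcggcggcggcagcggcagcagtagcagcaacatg
Kcnmb1: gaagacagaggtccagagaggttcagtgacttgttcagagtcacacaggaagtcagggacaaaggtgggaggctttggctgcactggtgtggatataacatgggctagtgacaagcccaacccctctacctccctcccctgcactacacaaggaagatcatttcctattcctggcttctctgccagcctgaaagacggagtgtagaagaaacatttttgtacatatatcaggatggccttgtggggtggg

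Kcnt1, the pore of a sodium-activated channel known best from neurons, had the lowest level of the called genes. It held 69, 136 and 99 counts in the libraries labelled Sost-/- (1.61, 3.36 and 2.36 CPM), against 16, 22 and 29 counts in those labelled Sost+/+ (0.36, 0.56 and 0.80 CPM). All 3 libraries labelled Sost-/- were above all 3 labelled Sost+/+ (log2 fold change 2.10, SE 0.38, edgeR adjusted p = 0.0279). Its relative Kcnt2 averaged 9.97 ± 0.11 CPM in the libraries labelled Sost-/- and 8.04 ± 0.34 CPM in those labelled Sost+/+ (SD, n = 3 each), which did not pass the test (log2 fold change 0.31, SE 0.11, edgeR adjusted p = 0.170).

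None of the 4 Kcnn genes passed. Kcnn1, Kcnn2 and Kcnn3 encode small-conductance and Kcnn4 the intermediate-conductance calcium-activated channel, which is known from endothelium and immune cells. Averaged over all 6 libraries Kcnn1 had the highest level per kb of the calcium-activated group. By label the order differed, since in the libraries labelled Sost-/- Kcnmb1 averaged 5.18 and Kcnn1 3.66 CPM per kb, and in those labelled Sost+/+ Kcnmb1 averaged 1.24 and Kcnn1 3.84 CPM per kb. Kcnn1 had 15.4, 18.4 and 16.6 CPM in the libraries labelled Sost-/- and 17.6, 17.3 and 17.8 CPM in those labelled Sost+/+. These ranges overlapped (log2 fold change -0.07, SE 0.10). Kcnn3 was at 0.56 (SE 0.29), Kcnn2 at -0.15 (SE 0.14) and Kcnn4 at -0.41 (SE 0.27).

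Of the 26 tested Kv pore and modifier subunits, 2 rose (7.69%) and 1 fell (3.85%), with a median log2 fold change of 0.31. The shares over all tested genes were 2.18% and 0.371%. Kcna5 (ENSMUSG00000045534.4, chromosome 6, 126532551 to 126535412, minus strand) had 32.5, 24.1 and 22.6 CPM in the libraries labelled Sost-/-, against 45.9, 48.5 and 37.3 CPM in those labelled Sost+/+. The highest library labelled Sost-/- lay below the lowest labelled Sost+/+. The log2 fold change was -0.73 (SE 0.15, edgeR adjusted p = 0.0436).

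Kcna5 was the only one of the 7 Kcna members to pass the test in either direction. Its neighbours on chromosome 6, Kcna1 and Kcna6, which lie with it in 208 kb, had positive log2 fold changes of 0.58 (SE 0.21) and 0.56 (SE 0.20) that did not pass (edgeR adjusted p = 0.179 and 0.168). Of the annotated exon bases of Kcna6, 39.6% are shared with a gene on the other strand. Kcna1 and Kcna2 are Shaker-type pores known from axons as well as from arteries. Kcna2 had 13.0, 17.2 and 16.0 CPM in the libraries labelled Sost-/-, against 11.1, 11.4 and 8.51 CPM in those labelled Sost+/+, with no overlap (log2 fold change 0.57, SE 0.15, edgeR adjusted p = 0.0919, DESeq2 adjusted p = 0.0211).

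Kcna5 made up 49.4%, 40.4% and 38.6% of the summed Kcna level per kb in the libraries labelled Sost-/-, against 59.1%, 60.2% and 54.6% in those labelled Sost+/+. Kcna6 averaged 6.14% ± 1.06 of that sum in the libraries labelled Sost-/- and 3.33% ± 0.66 in those labelled Sost+/+ (SD, n = 3 each). Kcna2 held 6.08% ± 1.16 of it in the libraries labelled Sost-/- and 3.29% ± 0.25 in those labelled Sost+/+ (SD, n = 3 each). Shares of Kcna5, Kcna6 and Kcna2 did not overlap between the groups (two-sided exact permutation tests, p = 0.1 each, where no smaller p can be reached). Shares in a library have a fixed sum, so a lower share of Kcna5 goes with a higher summed share of the others. These tests are therefore not independent, and their p-values were not adjusted for the other shares computed. Kcna7 and Kcna4 had log2 fold changes of -0.17 and -0.35, and Kcna4 encodes a pore of the transient outward current.

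The 250 bases before the RefSeq start of Kcna5 (chr6:126535556-126535805, minus strand, 53.2% G and C) are shown as those of the gene that fell, again with no searched motif.
Kcna5: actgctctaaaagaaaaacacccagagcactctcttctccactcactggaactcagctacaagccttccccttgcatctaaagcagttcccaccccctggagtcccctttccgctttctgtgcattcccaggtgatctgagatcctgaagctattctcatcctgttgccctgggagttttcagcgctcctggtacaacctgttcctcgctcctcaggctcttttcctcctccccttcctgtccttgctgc

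The Kv subunits that rose were of low level. Kcnc4, a fast Shaw-type pore subunit, had 2.55, 1.75 and 4.85 CPM in the libraries labelled Sost-/-, against 0.87, 0.81 and 0.38 CPM in those labelled Sost+/+ (log2 fold change 2.12, SE 0.44, edgeR adjusted p = 0.0422). Replicate 3 was the highest under the Sost-/- label and the lowest under the Sost+/+ label. It lies on chromosome 3 at 107438303 to 107459552, with Kcna2, Kcna3 and Kcna10 in a span of 423 kb. Kcna3 had 71 and Kcna10 1 count over all libraries. Its relatives Kcnc1 and Kcnc2 had log2 fold changes of 0.50 and 0.72 that did not pass.

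Kcns3 encodes a subunit that forms no channel alone and modifies other Kv pores. It had 2.78, 2.74 and 4.68 CPM in the libraries labelled Sost-/-, against 0.78, 1.55 and 1.21 CPM in those labelled Sost+/+ (log2 fold change 1.53, SE 0.32, edgeR adjusted p = 0.0446). The groups did not overlap. Kcns3 and Kcnc4 did not pass in limma-voom (adjusted p up to 0.0728).

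Kcng2, another modifier subunit, was the most abundant Kv gene per kb. It had 143, 126 and 119 CPM in the libraries labelled Sost-/-, against 157, 165 and 182 CPM in those labelled Sost+/+. The groups did not overlap, and the log2 fold change of -0.38 (SE 0.10) did not pass in edgeR (adjusted p = 0.0928, DESeq2 adjusted p = 0.0135). Kcnh2, the pore of the rapid delayed rectifier, followed with 137, 127 and 159 CPM in the libraries labelled Sost-/- and 109, 139 and 124 CPM in those labelled Sost+/+. These ranges overlapped (log2 fold change 0.18, SE 0.12, edgeR adjusted p = 0.421).

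Kcnq1, the slow delayed rectifier pore of heart, had a log2 fold change of -0.22 (SE 0.13), and Kcnq5, known from arteries and neurons, one of 0.49 (SE 0.24). Neither passed in edgeR. Kcnq1ot1, transcribed from the strand opposite to Kcnq1 and sharing 121 exon bases with it, had a log2 fold change of 0.34 (SE 0.13, edgeR adjusted p = 0.194). Whether the authors counted by strand is not given in the sources used here.

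**Figure D2:**
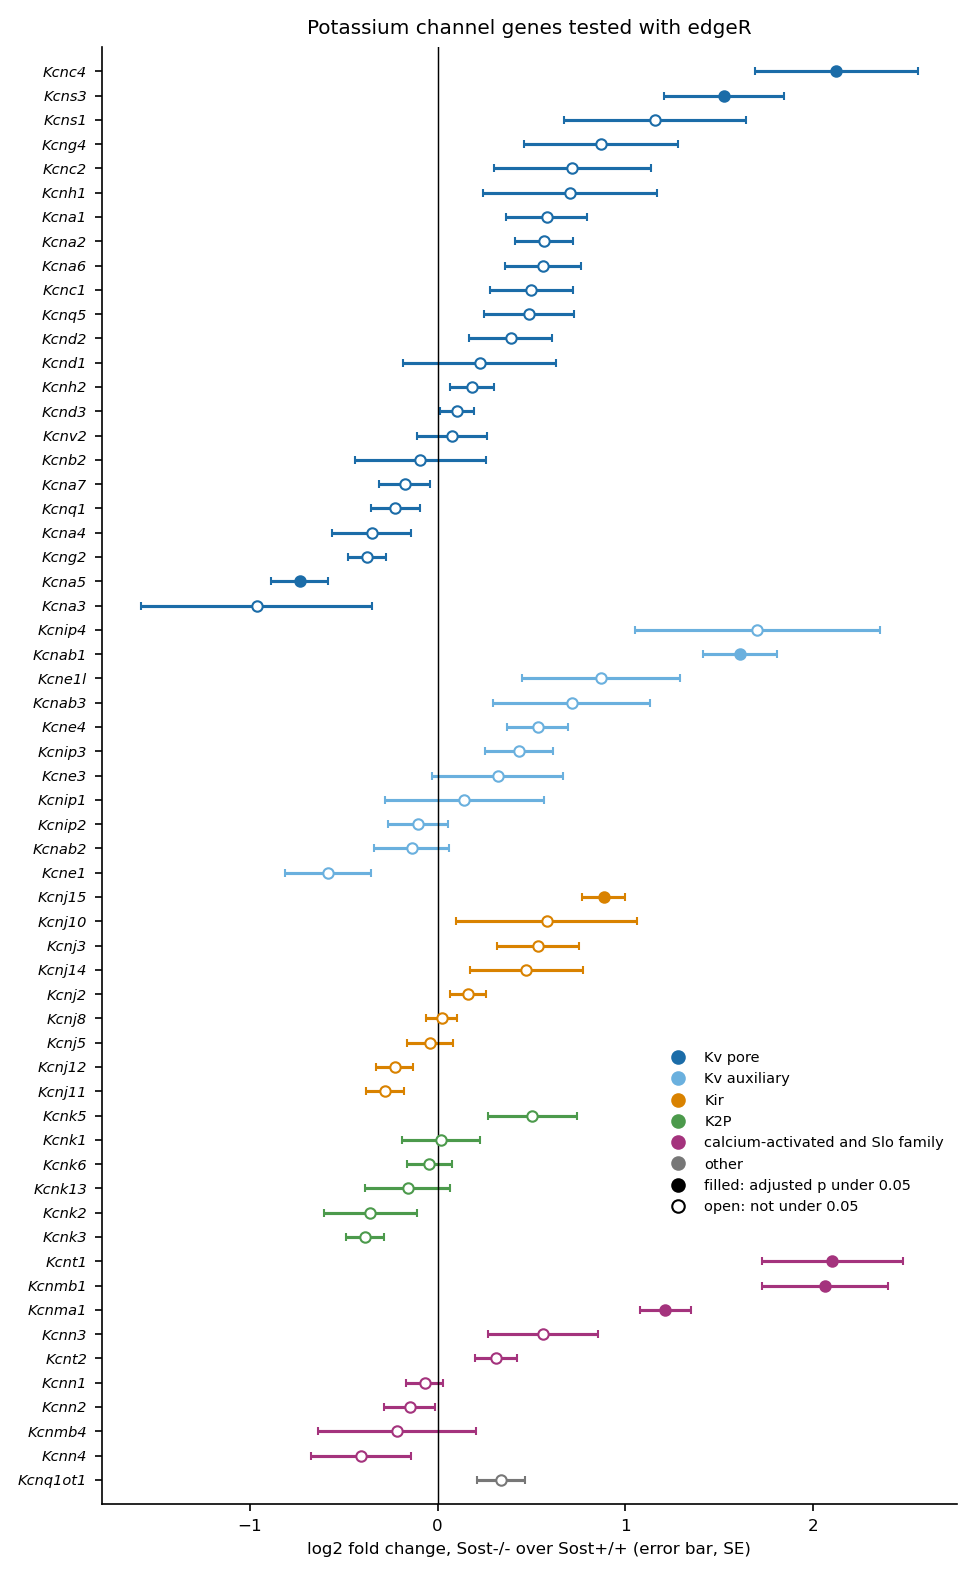
Log2 fold changes with SE (horizontal axis) of 59 of the 62 tested genes, ordered by class and value. Filled points passed the edgeR test at 0.05, and these are Kcnc4, Kcns3 and Kcna5 among Kv subunits, Kcnab1, Kcnj15, and Kcnt1, Kcnmb1 and Kcnma1.

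Among the 11 tested auxiliary subunits of Kv channels, 1 rose (9.09%) and 0 fell, with a median log2 fold change of 0.43. The shares over all tested genes were 2.18% and 0.371%. Kcnab1 (ENSMUSG00000027827.16, chromosome 3, 65109384 to 65378223, plus strand) encodes a cytoplasmic beta subunit that binds Kcna pores and speeds their inactivation. It had 15.5, 11.2 and 16.5 CPM in the libraries labelled Sost-/-, against 3.97, 5.88 and 4.31 CPM in those labelled Sost+/+. Every library labelled Sost-/- was above every library labelled Sost+/+ (log2 fold change 1.61, SE 0.20, edgeR adjusted p = 0.0119). Its relatives Kcnab2 and Kcnab3 had log2 fold changes of -0.14 (SE 0.20) and 0.71 (SE 0.42) that did not pass.

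The level of Kcnab1 per kb was set against the sum of 6 Kcna pores, which leaves out Kcna3. This ratio was 0.079, 0.063 and 0.095 in the libraries labelled Sost-/-, against 0.017, 0.024 and 0.021 in those labelled Sost+/+. The groups did not overlap (two-sided exact permutation p = 0.1, and 0.2 adjusted over 6 ratios). The numerator Kcnab1 rose, and Kcna5, the largest term of the denominator, fell, so the ratio is no result separate from those calls. In mixed tissue it need not describe subunits of the same cells.

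Kcnab1 has 3 RefSeq start windows, and the middle one is shown because it holds an E-box, the letters CACGTG (printed in capitals, first base at position -162 from the start), a motif known from binding by clock and MYC-type factors. The window lies at chr3:65108764-65109013 on the plus strand. A further E-box lies in the third window at position -45.
Kcnab1: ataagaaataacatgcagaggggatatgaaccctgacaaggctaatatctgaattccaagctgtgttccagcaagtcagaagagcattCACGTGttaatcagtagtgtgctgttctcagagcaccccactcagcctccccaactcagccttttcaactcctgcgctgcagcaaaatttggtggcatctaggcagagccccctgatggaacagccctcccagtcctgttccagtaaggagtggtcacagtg

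Motifs were searched on both strands in the 250 bases before each start. Of 49 members with a window, 4 held CACGTG (Kcnab1, Kcne4, Kcnj2 and Kcnn4), and 6.86% of 27025 genes did. The TCF/LEF letters CTTTGAT were found in 2 members (Kcne4 and Kcnk2) and in 3.72% of all genes. The CArG box of serum response factor was found in 0 members and in 1.62% of all genes. These windows are short, and a missing match says only that the letters are not in them.

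Kcnip2, the calcium-binding partner of Kcnd pores in the transient outward current of heart, was the most abundant auxiliary gene. It had 103, 75.9 and 72.2 CPM in the libraries labelled Sost-/- and 108, 80.7 and 81.6 CPM in those labelled Sost+/+, with wide overlap (log2 fold change -0.11, SE 0.16). The pores Kcnd2 and Kcnd3 had log2 fold changes of 0.39 (SE 0.22) and 0.10 (SE 0.09). Kcnip2 stood to their sum per kb as 5.6, 5.31 and 4.67 in the libraries labelled Sost-/-, against 7.05, 6.31 and 6.45 in those labelled Sost+/+, with no overlap (two-sided exact permutation p = 0.1, and 0.2 adjusted over 6 ratios).

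Kcne4, a single-span subunit that inhibits Kcnq1 and some Kcna channels, had 22.7, 18.8 and 27.0 CPM in the libraries labelled Sost-/-, against 15.2, 18.7 and 13.3 CPM in those labelled Sost+/+. The lowest library labelled Sost-/- was almost level with the highest labelled Sost+/+ (log2 fold change 0.53, SE 0.16, edgeR adjusted p = 0.120, DESeq2 adjusted p = 0.0428). Kcne1, which slows Kcnq1 channels in heart, averaged 8.82 ± 2.91 CPM in the libraries labelled Sost-/- and 13.2 ± 2.10 CPM in those labelled Sost+/+ (SD, n = 3 each, log2 fold change -0.58, SE 0.23, edgeR adjusted p = 0.199). Kcnip4 had the largest log2 fold change of the auxiliary genes that did not pass (1.70, SE 0.65), from 3 to 60 counts a library.

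Inward rectifiers numbered 9 tested members, of which 1 rose (11.1%) and 0 fell, with a median log2 fold change of 0.16. The shares over all tested genes were 2.18% and 0.371%. The one that rose, Kcnj15 (ENSMUSG00000062609.14, chromosome 16, 95257558 to 95300260, plus strand), is known from epithelia such as kidney and stomach. It had 16.8, 17.5 and 17.4 CPM in the libraries labelled Sost-/-, against 8.21, 9.87 and 9.96 CPM in those labelled Sost+/+. Spread was small in both groups and they lay far apart (log2 fold change 0.88, SE 0.11, edgeR adjusted p = 0.0119). It made 2.68% ± 0.19 of the summed Kir level per kb in the libraries labelled Sost-/- and 1.36% ± 0.12 in those labelled Sost+/+ (SD, n = 3 each).

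The abundant Kir genes did not pass. Kcnj11, the pore of the ATP-sensitive channel of heart muscle, had 148, 119 and 122 CPM in the libraries labelled Sost-/-, against 157, 156 and 159 CPM in those labelled Sost+/+, with no overlap (log2 fold change -0.28, SE 0.10, edgeR adjusted p = 0.178). Kcnj8, the pore of the vascular form, was at 40.7 ± 2.33 CPM in the libraries labelled Sost-/- and 40.1 ± 0.94 CPM in those labelled Sost+/+ (SD, n = 3 each, log2 fold change 0.02, SE 0.08). Their shared regulatory subunit gene Abcc9 had a log2 fold change of 0.18 (SE 0.13), and Abcc8 one of 0.07 (SE 0.24).

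Per kb the Kcnj11 to Abcc9 ratio was 1.20, 1.32 and 1.32 in the libraries labelled Sost-/-, against 1.76, 1.84 and 1.65 in those labelled Sost+/+, with no overlap (two-sided exact permutation p = 0.1, and 0.2 adjusted over 6 ratios). The Kcnj8 to Abcc9 ratio overlapped (0.58 ± 0.077 in the libraries labelled Sost-/- and 0.64 ± 0.056 in those labelled Sost+/+, SD, n = 3 each, two-sided exact permutation p = 0.5).

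Kcnj5, a pore of the acetylcholine-activated channel of the atria, had 103, 107 and 140 CPM in the libraries labelled Sost-/- and 114, 129 and 118 CPM in those labelled Sost+/+, with overlap (log2 fold change -0.04, SE 0.12). Its partner Kcnj3 was at 0.54 on the same log2 scale (SE 0.22, not called), and 31.1% of the annotated exon bases of Kcnj3 are shared with a gene on the other strand. The background rectifiers Kcnj12 and Kcnj2 were at -0.23 (SE 0.10) and 0.16 (SE 0.10).

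Of the 6 K2P members 0 rose and 0 fell in edgeR, with a median log2 fold change of -0.10. The shares over all tested genes were 2.18% and 0.371%. The acid-sensitive leak channel Kcnk3 was the most abundant potassium channel gene of all, at 61.4 ± 5.48 CPM per kb in the libraries labelled Sost-/- and 80.2 ± 4.71 CPM per kb in those labelled Sost+/+ (SD, n = 3 each). In CPM it had 268, 226 and 238 in the libraries labelled Sost-/-, against 299, 322 and 336 in those labelled Sost+/+. The groups did not overlap, and the log2 fold change of -0.39 (SE 0.10) did not pass in edgeR (adjusted p = 0.0886, DESeq2 adjusted p = 0.00577). Kcnk6, the next most abundant, had 13.4, 11.3 and 10.8 CPM in the libraries labelled Sost-/- and 12.1, 11.6 and 12.8 CPM in those labelled Sost+/+, with overlap (log2 fold change -0.04, SE 0.12). Kcnk5 was at 0.50 (SE 0.24), and the stretch-sensitive Kcnk2 at -0.36 (SE 0.25).

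**Figure D3:**
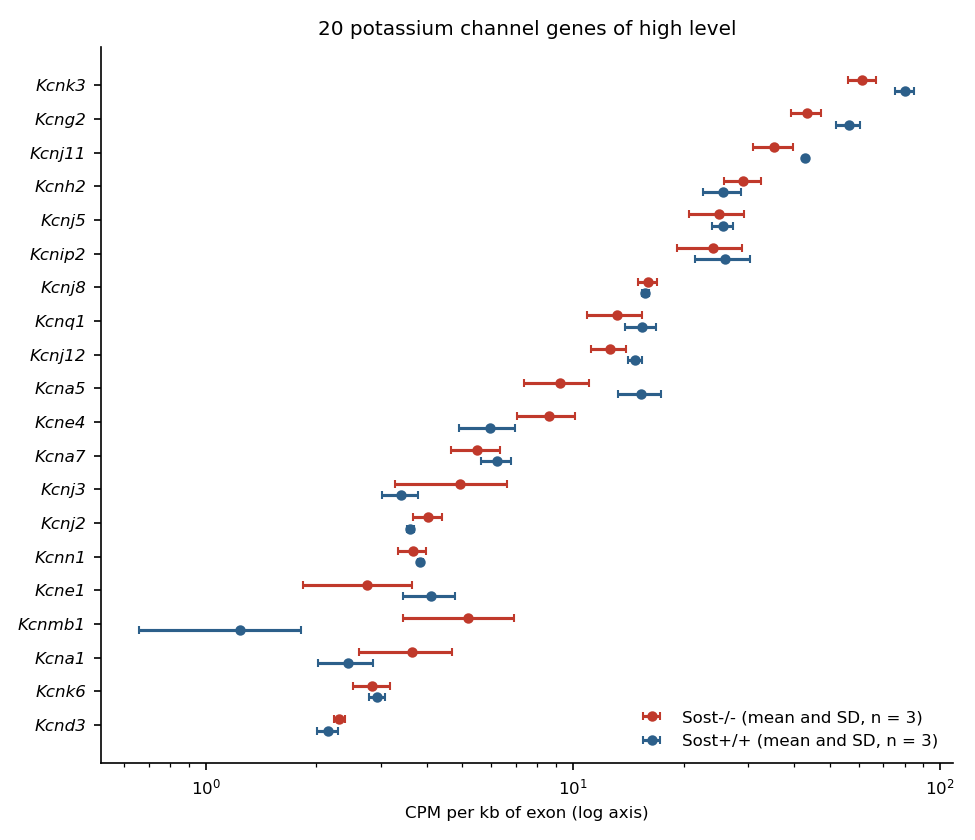
Mean level with SD of 3 libraries, in CPM per kb of annotated exon (horizontal log axis), of 20 abundant members. Kcnk3, Kcng2 and Kcnj11 lead in both groups, and Kcnmb1 shows the widest gap between the groups.

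Levels and directions went together across the members. The 10 most abundant tested members held 79.7% of the summed Kcn level per kb, and 8 of them had negative and 2 positive log2 fold changes, with a median of -0.23, 0 rises and 1 fall. Of the other 52 tested members 38 were positive and 14 negative, with a median of 0.45, 7 rises and 0 falls. Over all tested genes 51.3% of log2 fold changes were positive. That share was not computed for genes of like level, so whether direction went with level beyond these members was not tested. The order by mean level per kb was Kcnk3, Kcng2, Kcnj11, Kcnh2, Kcnj5, Kcnip2, Kcnj8, Kcnq1, Kcnj12 and Kcna5. Over the 6 libraries the ranges of neighbours in this order overlapped, except those of Kcnip2 and Kcnj8. These ranges pool both labels and do not compare the genes within a library. Kcnmb1 stood at rank 18 and the other rising genes at rank 22 or lower.

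**Figure D4:**
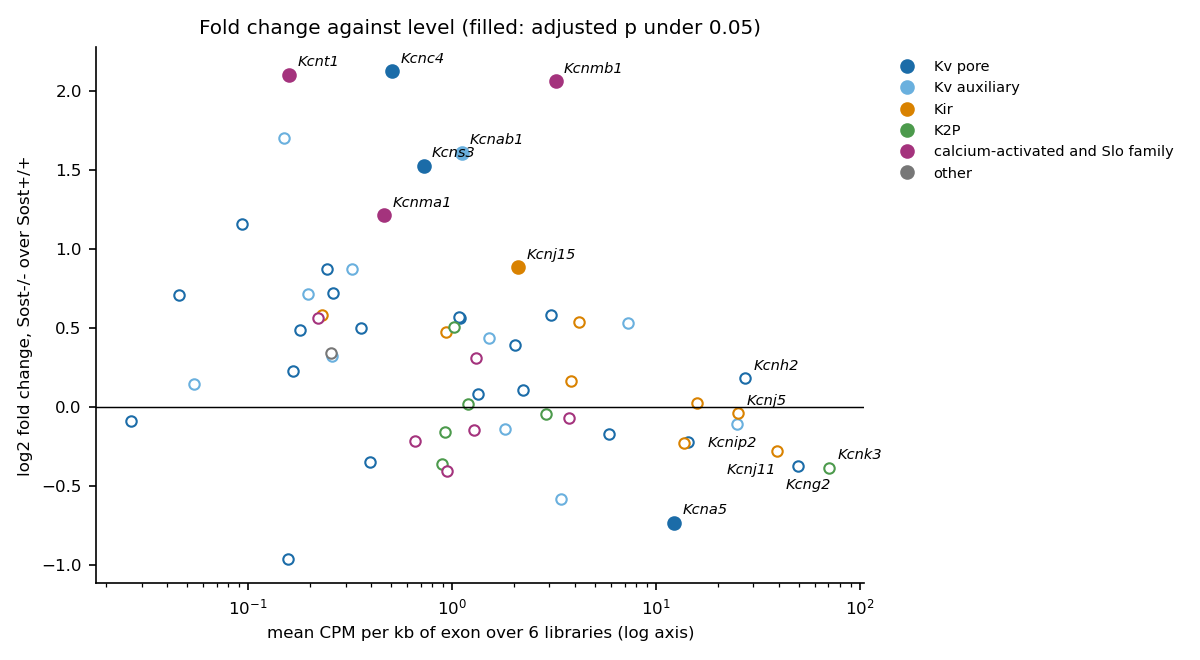
Log2 fold change (vertical axis) against mean level in CPM per kb (horizontal log axis) for 59 of the 62 tested members, coloured by class, with filled points for those that passed. The 7 rising genes lie under 5 CPM per kb and the falling gene Kcna5 at 12.3.

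Beyond the calls, all 3 libraries labelled Sost-/- lay above all 3 labelled Sost+/+ for 19 of the 62 tested members (30.6%, where 14.3% of all tested genes did so) and below them for 6 (9.68%, where 11.1% did so). At an unadjusted p under 0.05 edgeR had 24 members, where it had 20.2% of all tested genes. DESeq2 called 10 members higher and 3 lower, where it called 5.11% and 2.87% of all tested genes, and the 8 edgeR calls were among its 13. Among the further DESeq2 calls were Kcna2 and Kcne4 higher and Kcng2 and Kcnk3 lower.

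On a list of 15 potassium channel genes known from arterial smooth muscle, 3 rose (Kcnma1, Kcnmb1 and Kcns3) and 1 fell (Kcna5), with a median log2 fold change of 0.49. On a list of 17 known from cardiomyocytes, 0 rose and Kcna5 fell, with a median of -0.17. The lists share members, among them Kcna5, Kcnq1, Kcnj2 and Kcnk3. Both lists were drawn up with earlier results of these data known. The mean log2 CPM of the smooth muscle markers was 8.53, 8.31 and 8.75 in the libraries labelled Sost-/-, against 7.26, 7.80 and 7.01 in those labelled Sost+/+. That of the cardiomyocyte markers was 11.25, 11.17 and 11.22 in the libraries labelled Sost-/-, against 11.48, 11.67 and 11.57 in those labelled Sost+/+. Neither score overlapped, so score and genotype label cannot be told apart, and a fit with a score as covariate extrapolates.

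With the smooth muscle score as covariate, 0 of the 8 calls remained, and 0 of all genes were called. The log2 fold changes were then 2.89 (SE 0.91) for Kcnt1 and 0.98 (SE 0.35) for Kcnma1. They were 0.84 (SE 0.30) for Kcnj15 and -1.07 (SE 0.36) for Kcna5. Kcnab1 was at 0.68 (SE 0.36), Kcns3 at 0.40 (SE 0.69), Kcnmb1 at 0.16 (SE 0.41) and Kcnc4 at 0.06 (SE 0.93). With the cardiomyocyte score, again 0 of the 8 and 0 of all genes were called, and the values were 4.61 for Kcnmb1, 3.24 for Kcns3, 2.92 for Kcnab1 and 2.43 for Kcnc4. Kcnt1 was at 1.87 (SE 1.46), Kcnma1 at 1.38 (SE 0.47), Kcnj15 at 1.26 (SE 0.38) and Kcna5 at -0.31 (SE 0.47).

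**Figure D5:**
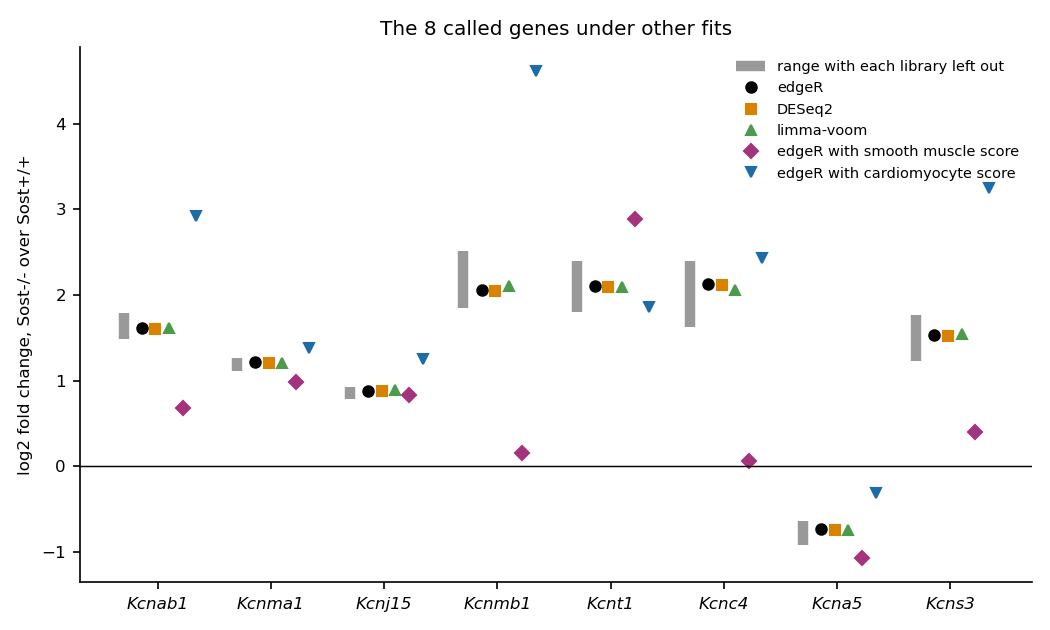
Log2 fold change (vertical axis) of the 8 called genes in edgeR, DESeq2 and limma-voom and in edgeR with a marker score as covariate. Grey bars give the range with each of the 6 libraries left out. The tools and omissions keep each gene on its side of 0. With the smooth muscle score Kcnmb1 and Kcnc4 were at 0.16 (SE 0.41) and 0.06 (SE 0.93).

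The 5 members that edgeR's filter on low counts left untested were Kcnf1, Kcnrg, Kcnh3, Kcnh6 and Kcnj4, with 32 to 59 counts in all. None of them reached 20 counts in any library.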

How the data were processed

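Bulk RNA sequencing of 6 aortic roots was analysed. The authors deposited whole-number read counts per gene symbol, and a normalized signal that equals the counts divided by 1 factor per library. Those factors matched DESeq2's size factors. Tools named in the submitters' processing notes are DRAGEN, HTSeq and DESeq2, with build mm10, and a directional kit is given per the labels' protocols. No source used here gives versions, annotation or strand setting, so overlapping and antisense genes may share reads.

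Genes passing filterByExpr (minimum count 10, minimum total 15; 15096 genes) entered edgeR 4.0.16 (R 4.3.3) with TMM scaling and a quasi-likelihood test, with Benjamini-Hochberg adjustment. Fold changes are those of libraries labelled Sost-/- over those labelled Sost+/+. The SE of an edgeR log2 fold change was derived as its absolute value over the square root of the F statistic of the test. CPM uses TMM-scaled library sizes. Levels between genes are CPM per kb of merged exons in GENCODE M21 (GRCm38, the assembly of mm10), which covers all 95 Kcn symbols. The merged length holds exons of all isoforms and understates genes with long unused exons. Sequences are RefSeq's (GRCm38.p6). Shares and ratios were compared by two-sided exact permutation tests. Members with an adjusted p under 0.05 and the 2 most abundant of each class are given by library. Values of 3 members are not reported here, though counts and medians over the members hold them. Members and lists were chosen with earlier results of these data known. Simulated counts with known changes were used to test the fit. Alternatives used other scaling, filters, DESeq2 1.42.0, limma 3.58.1 (voom, and on log2 of the deposited signal with a pseudocount of 1), robust dispersion, marker scores as covariates, and each library left out. No pair of replicates was alike within sampling noise (chi-square per degree of freedom at least 34.1).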

Additional observations from a re-analysis of the deposited data

How the results depend on the processing

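No paired analysis was possible because the labels number no replicates. The numbers 1 to 3 used here only name libraries in sample order. With either marker score as covariate the counts of members higher and lower were 0 in each class, and the median log2 fold change over the members was 0.17 (smooth muscle) and 0.20 (cardiomyocyte). DESeq2 called 3 members lower in all, among Kv pores 4 higher and 2 lower, among Kv auxiliary genes 2 higher and among K2P genes 1 lower. Limma-voom called 0 Kv pores higher. With each library left out, members higher ran from 0 to 6 and members lower from 0 to 1. Kv pores higher ran from 0 to 2 and lower from 0 to 1, Kv auxiliary genes higher from 0 to 1, Kir genes higher from 0 to 1, and calcium-activated genes higher from 0 to 3. The median ran from 0.17 to 0.31. Size factors of DESeq2 and the deposited signal gave 7 higher and 1 lower, as did the robust fit, in which Kcnmb1 was not called. The fit without a filter gave 8 and 1.

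No called member changed sign in any fit. Other members changed sign as follows. With the smooth muscle score the log2 fold changes were Kcna6 -0.42, Kcnab2 0.41, Kcne4 -0.35, Kcnh2 -0.26, Kcnip2 0.080, Kcnip4 -1.50, Kcnj3 -0.19, Kcnk13 0.26, Kcnk6 0.16, Kcnmb4 0.17, Kcnn1 0.070, Kcnn4 1.05 and Kcnv2 -0.25. With the cardiomyocyte score they were Kcna3 0.30, Kcnb2 0.36, Kcnd3 -0.17, Kcng4 -1.24, Kcnip1 -0.36, Kcnj10 -1.36, Kcnj14 -0.084, Kcnj5 0.26, Kcnk1 -0.56, Kcnn2 0.090, Kcnq1 0.44 and Kcns1 -0.85. With each library left out, ranges that crossed 0 were Kcnab2 -0.26 to 0.071, Kcnd1 -0.11 to 0.55, Kcnip1 -0.054 to 0.41, Kcnip2 -0.28 to 0.033, Kcnj5 -0.19 to 0.040, Kcnj8 -0.021 to 0.062, Kcnk1 -0.068 to 0.16, Kcnk13 -0.28 to 0.0078, Kcnk6 -0.14 to 0.019, Kcnmb4 -0.85 to 0.11 and Kcnv2 -0.074 to 0.18. The cause was not tested. Genes near or under 1 CPM rest on few counts a library, which limits their precision. Others that changed sign were abundant, such as Kcnh2 (109 to 159 CPM) and Kcnj5 (103 to 140 CPM). None of the listed genes was called in the fit where its sign changed.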

Other observations

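Other genes of membrane excitability were counted in the same edgeR fit, where 2.55% of all tested genes were called. Of 14 tested chloride channel genes, 3 rose and 0 fell. Ano1, a calcium-activated chloride channel of smooth muscle, averaged 37.0 ± 9.52 CPM in the libraries labelled Sost-/- and 15.4 ± 2.52 CPM in those labelled Sost+/+ (SD, n = 3 each, log2 fold change 1.27, SE 0.19, edgeR adjusted p = 0.0191). Ano6, a lipid scramblase and channel, and Clcn2, a chloride channel, had log2 fold changes of 0.54 (SE 0.10) and 0.68 (SE 0.13). Of 18 voltage-gated calcium channel genes, 1 rose and 0 fell, the beta subunit gene Cacnb3 (0.73, SE 0.14). None of 10 sodium channel genes, 16 TRP and HCN genes or 7 subunits of the sodium pump passed in edgeR, with median log2 fold changes of 0.17, 0.09 and -0.14.

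Dpp10, an auxiliary subunit of Kcnd channels outside the Kcn symbols, had 1.75, 0.79 and 2.12 CPM in the libraries labelled Sost-/-, against 0.11, 0.56 and 0.05 CPM in those labelled Sost+/+. The groups did not overlap, and the log2 fold change of 2.67 (SE 0.68) did not pass (edgeR adjusted p = 0.0807). Its relative Dpp6 was at -0.12 (SE 0.21).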
